A study of Mus musculus with 2 samples.

Results

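A star strand is the strand of a miRNA duplex that was named as the lesser product of its hairpin, and its partner is called the guide. Of the 558 known miRNA names of the study, 152 ended in a star, miR-9* left aside. A sequence of the deposited data, here called a tag, could be assigned to 151 of them, which were 150 distinct tags because let-7a-1* and let-7c-2* share 1. A guide was listed for 145, and all but 9 of these pairs had at least 10 reads in total. The lowest pairs inside that limit, those of miR-450a-2*, miR-467d* and miR-700*, had 10 reads, and the highest outside it, that of miR-200b*, had 9. In 34 pairs the guide is made by more than 1 hairpin, so that the guide reads belong to several genes. Each star name was assigned to 1 hairpin, although a star tag can be shared too, as for let-7a-1* and let-7c-2*.

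The tags were counted in small RNAs of 18 to 30 nucleotides from whole mouse brains. All mice were male and of the inbred strain C57BL/6J, without a transgene or treatment in the labels. The young library pooled the cDNA of 2 mice at 5 months and the old library that of 2 mice at 24 to 25 months, so that single mice cannot be told apart. With 1 library per age there was no replicate error, and every P-value below compares the reads of these libraries and not the ages.

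In the biogenesis of miRNAs, Dicer cuts the hairpin into a short duplex with 1 strand from each arm. The strand whose 5′ end is less tightly paired, and often one that begins with U, tends to be loaded into an Argonaute protein, while the other strand is mostly degraded. The seed, bases 2 to 8 from the 5′ end, sets which mRNAs a loaded strand can pair with, so the star and the guide of a hairpin have different targets. The star share, star reads over the sum of star and guide reads, does not depend on the depth of a library, since both strands were counted in the same one.

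The tags of the strands on which the results turn are given 5′ to 3′ as DNA letters, with the seed in capitals. The first set had a lower star share in the old library, and miR-17 and miR-106b show the same guide seed beside different star seeds.
miR-185*: aGGGGCTGgctttcctctggt
miR-106b*: cCGCACTGtgggtacttgctgc
miR-106b: tAAAGTGCtgacagtgcagat
miR-17*: aCTGCAGTgagggcacttgtag
miR-17: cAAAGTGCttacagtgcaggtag
let-7d*: cTATACGAcctgctgcctttct
let-7d: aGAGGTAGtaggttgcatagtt
miR-16-1*: cCAGTATTgactgtgctgctga
miR-16: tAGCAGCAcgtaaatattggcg

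In the second set, the pairs of miR-154 and miR-34a had a higher star share in the old library, and miR-140* and miR-330* had more reads than their guides in both libraries.
miR-154*: aATCATACacggttgacctatt
miR-154: tAGGTTATccgtgttgccttcg
miR-34a*: aATCAGCAagtatactgccct
miR-34a: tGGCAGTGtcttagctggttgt
miR-140*: tACCACAGggtagaaccacgg
miR-330*: gCAAAGCAcagggcctgcagaga
miR-330: tCTCTGGGcctgtgtcttaggc

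The young library held 4523267 reads and the old library 6658732. The counted let-7 tags took 1036895 and 2211937 of them. Of the miRNAs that mark brain, the counted tags held 1795 young and 842 old reads for miR-124 and 6673 and 7361 for miR-9. They held 56950 and 48015 for miR-128, and 1471 and 1115 for miR-219-5p. The counted tag of miR-124 was a minor form, since all perfect tags of its hairpin arm had 142011 young and 89140 old reads. Counts of single tags therefore do not rank these miRNAs by abundance. The muscle miRNA miR-1 held 21027 and 51499 reads and miR-206 held 3425 and 5054, while the counted tag of miR-133a held 0 and 2. The blood miRNA miR-451 held 298 and 262 reads, and miR-122 of liver 309 and 259. The part of such other cells in the star values was not tested.

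By counted tag, the star strands were rare. The 150 star tags held 7352 young and 6217 old reads, or 1625 and 934 RPM (reads per 1000000 reads of the library), which was 0.413% and 0.205% of the reads on all counted known miRNAs. A star name had a median of 9 reads over both libraries, against 366 for a guide. Of the 151 stars, 78 had fewer than 10 reads by counted tag, 35 were read once and 25 had at least 100 reads. Only miR-127* and miR-140* had at least 1000 by counted tag. In the young library 17 stars had no read of the counted tag and in the old library 27, and a count of 0 allows up to 3 reads. Pooled over the pairs of 10 or more reads, the star share was 0.608% (young) and 0.328% (old) by counted tag. With all perfect tags of each hairpin arm it was 3.30% and 2.34%. By arm, other stars also had at least 1000 reads, such as miR-221* with 4406 young and 7734 old and miR-330* with 2235 and 2420.

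Most stars of 10 or more reads were lower in the old library, as were most known miRNAs. After normalization by total reads, 64 of the 73 stars were lower and 9 were higher, with a median log2 ratio (old/young) of -0.80. The median was -0.64 over all 320 names of 10 or more reads and -0.62 over the 247 that are not stars. At least 2-fold lower were 25 of the 73 stars (34.2%), against 31.6% of the 320 names, and 1 star, miR-300* with 3 young and 9 old reads, was at least 2-fold higher, against 2.19%. The random sampling model of DEGseq was run on all 151 stars with a tag, not only these 73. It gave 35 of the 151 an adjusted P-value below 0.05 in the lower direction and 0 in the higher, with 41 below 0.05 unadjusted. Over all 540 names with a tag, 33.5% passed lower and 4.44% higher. The exact binomial test gave 32 of the 151 stars lower and 0 higher. With TMM or DESeq2 factors every level moved up by 0.66 or 0.64 on the log2 scale, the stars at least 2-fold lower were 9 with either, and 34 or 32 of the 73 stars were then higher. Levels and RPM of single strands below are scaled by total reads, and their direction holds for that scaling, whereas the star-to-guide ratio is the same under each.

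By counted tag, miR-127* and miR-140* were the most read stars. miR-127*, from the maternally expressed imprinted domain of chromosome 12, had 1467 reads in the young and 797 in the old library. Its log2 ratio was -1.44 (counting SE 0.06) and that of its guide -1.54. Its hairpin lies at chr12:110831056-110831125 on the plus strand (NCBIM37), antisense to an exon of Rtl1. miR-140* had 1825 and 1714 reads, with a log2 ratio of -0.65 (counting SE 0.05) by total reads, 0.012 with TMM and -0.010 with DESeq2 factors. The hairpin of miR-140, a miRNA known from cartilage, lies at chr8:110075144-110075213 on the plus strand in an intron of Wwp2.

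The star share was low in most pairs, and its change between the libraries went in both directions, more often to lower. By counted tag, the median share over the pairs of 10 or more reads was 2.87% in the young and 1.24% in the old library. It lay below 5% in 84 and 91 pairs. By arm the medians were 3.06% and 2.19%, with 80 and 80 pairs below 5%. By the first 18 nucleotides they were 2.96% and 2.00%, with 84 and 84. By counted tag, the star-to-guide ratio was lower in the old library in 77 pairs and higher in 58. Its median log2 change was -0.21, against -0.19 over all 173 strand pairs of the table. With all tags of the same first 18 nucleotides the star-to-guide ratio was lower in 82 and higher in 58. With all tags of the arms it was lower in 86 and higher in 54. Its median was then -0.27, against -0.26 over all strand pairs and -0.18 over those that are not star pairs. By counted tag, the ratio was at least 2-fold lower in 37 pairs (27.2%; 27.7% of the 173) and at least 2-fold higher in 19 (14%; 14.5%). By arm it was at least 2-fold lower in 32 of 140 pairs (22.9%; 22.8% of 180 strand pairs) and higher in 17 (12.1%; 11.7%). Many of the 2-fold changes by counted tag rest on stars of a few reads. Among the 64 pairs with at least 10 star and 10 guide reads, the ratio was lower in 28 and higher in 36 with a median change of 0.10, and it was at least 2-fold lower in 12 and at least 2-fold higher in 7. Over all 81 strand pairs with such reads, 17.3% were at least 2-fold lower and 9.88% higher, and the median change was 0.03.

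Across those 64 pairs, the levels of star and guide moved together only weakly. The Pearson correlation of their log2 ratios was 0.12 (n = 64 pairs, which share the 2 libraries). 

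**Figure D1:**
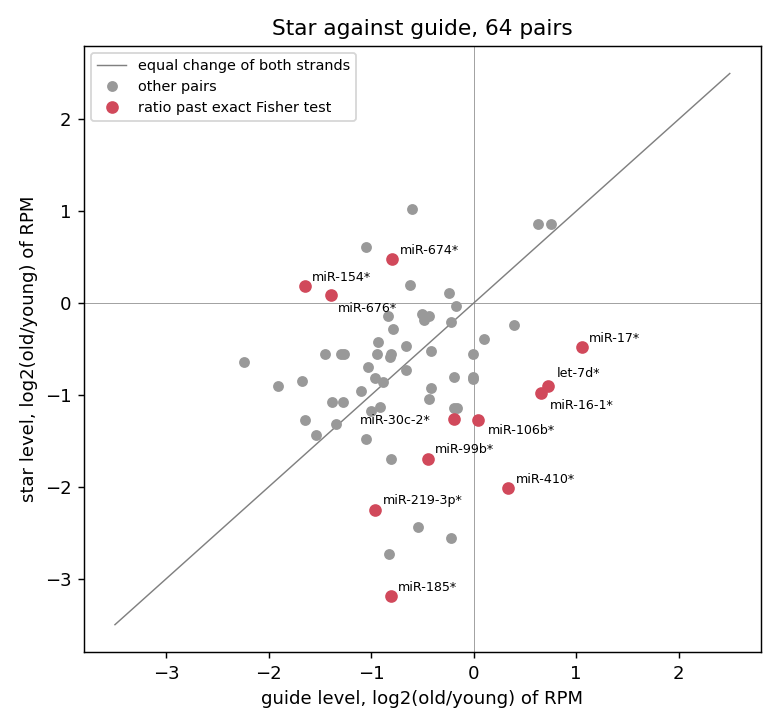
Log2 ratio (old/young) of the RPM of the star (vertical axis) against that of its guide (horizontal axis) for 64 pairs with at least 10 reads of each strand. Points are pairs, the line marks equal change of both strands, and the pairs past the adjusted exact Fisher test (red) lie below it for 9 stars and above it for miR-154*, miR-676* and miR-674*.

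The ratio passed the exact Fisher test, adjusted over the 173 strand pairs, in 12 star pairs and in 5 of the 37 other pairs. Among the star pairs it was lower in the old library in 9 (6.36% of all strand pairs passed in that direction) and higher in 3 (3.47%). Unadjusted, 19 star pairs were below 0.05. The guides of miR-16-1*, miR-219-3p* and miR-30c-2* are shared by several hairpins, so that their shares also depend on other genes. Without pairs of shared guides, 6 passed lower and 3 higher. When all perfect tags of each hairpin arm were counted, whatever their ends, the same 12 pairs passed in the same directions. In that count 17 of 140 pairs passed lower and 14 higher, against 12.8% and 10% of all 180 strand pairs.

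**Figure D2:**
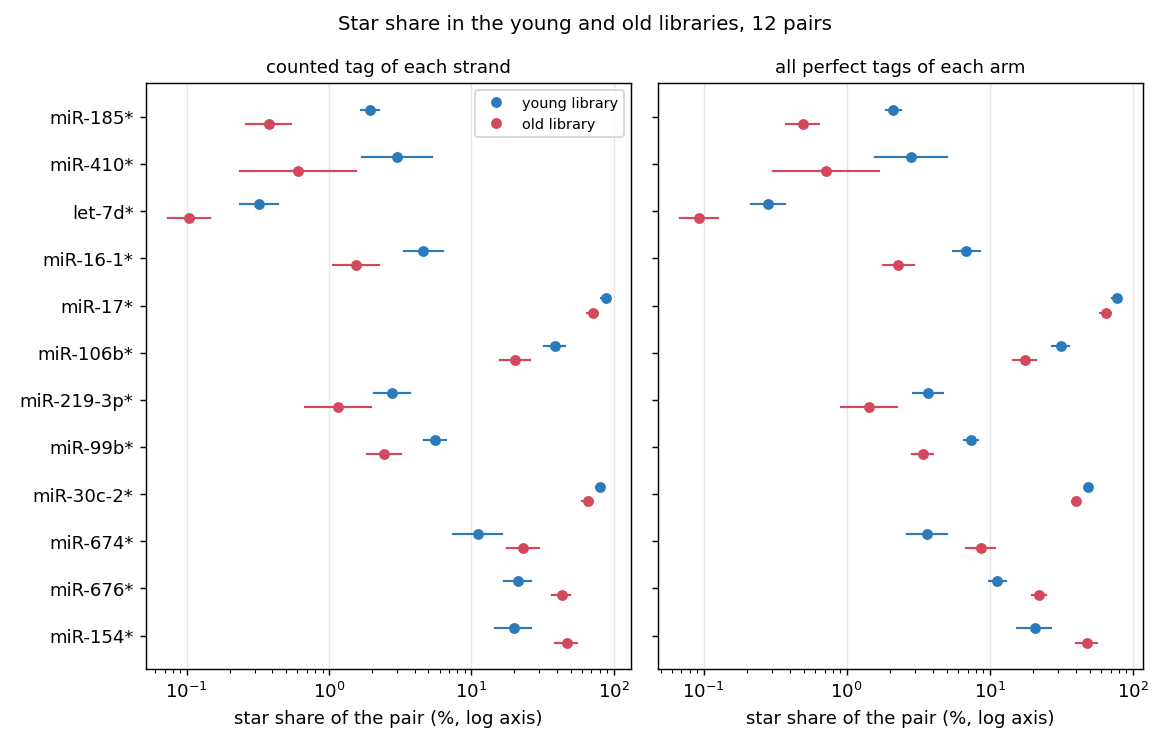
Star share of the pair in percent on a log axis for the 12 pairs past the adjusted exact Fisher test, from the counted tags (left) and from all perfect tags of each arm (right). Points are the young (blue) and old (red) library and bars are Wilson 95% intervals of counting, and the direction is the same in both panels for each pair, as for miR-185* with 1.93% and 0.376% by tag.

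Among the pairs past the test, the star-to-guide ratio of miR-185 had the largest fall. miR-185* had 180 young and 29 old reads, and its guide had 9145 and 7684. The star share was 1.93% (95% interval 1.67 to 2.23) in the young and 0.376% (0.262 to 0.539) in the old library. This was a log2 change of the ratio of -2.38 (counting SE 0.29, exact Fisher adjusted P-value 1.92e-20). With all tags of the arms, 276 and 54 star reads stood beside 12754 and 10863 guide reads, and the share was 2.12% and 0.495%. The most read tag of the star arm was the counted tag in both counts. The hairpin lies at chr16:18327494-18327558 on the minus strand, in an intron of D16H22S680E.

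miR-99b* and miR-219-3p* are stars of high GC content. miR-99b* had 112 young and 51 old reads beside 1890 and 2040 of miR-99b, which lies in a cluster with let-7e and miR-125a. The share was 5.59% and 2.44%, a log2 change of -1.25 (counting SE 0.25). miR-99a*, which has the same seed as miR-99b*, had only 2 and 2 counted reads. With all tags of its arm, it had 55 and 22 reads, and its share was 0.624% and 0.301% (exact Fisher adjusted P-value 0.0152). The tag named miR-219-3p* lies on the other arm of the hairpin of miR-219-5p, a miRNA of oligodendrocyte maturation. It had 42 young and 13 old reads, and its share was 2.78% and 1.15%, a log2 change of -1.29 (exact Fisher adjusted P-value 0.0391). After the linear GC correction described at the end, the change of miR-219-3p* was -0.18 and its call was lost. The call of miR-99b* was kept, and its tag had the same GC content as that of miR-99b (63.6%).

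miR-17* and miR-106b* belong to paralogous clusters whose guides share a seed and are known from cell proliferation. miR-17* stood at 28.5 RPM in the young and 20.4 in the old library, while miR-17 had 17 and 52 reads. The share of miR-17* was 88.4% and 72.3%, and thus the star had more reads in both libraries (log2 change -1.54, counting SE 0.44). By arm, miR-17* had 179 and 185 reads beside 52 and 101, a smaller log2 change of -0.91. By qRT-PCR, the study did not detect a large change of miR-17 between the ages. miR-106b* had 82 and 50 reads beside 129 and 195 of miR-106b, a share of 38.9% and 20.4% (log2 change -1.31, counting SE 0.31). After GC correction the change of miR-106b* was -0.41 and its call was lost. By total reads, log2 ratios were -0.48 for miR-17* and 1.06 for miR-17, and -1.27 for miR-106b* and 0.04 for miR-106b. The direction of miR-17* turned with the scaling, to 0.18 with TMM and 0.16 with DESeq2 factors. Mir17 lies at chr14:115442893-115442976 in an exon of Mir17hg, and Mir106b at chr5:138606965-138607046 in an intron of Mcm7. Of the 5 listed stars of miR-17, miR-92a, miR-92b, miR-106b and miR-25, these 2 passed lower, against 6.36% of all strand pairs. The median change was -0.58.

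For let-7d* and miR-16-1*, the guide had more reads and the star fewer in the old library, which is the deeper one. let-7d, a member of the developmental let-7 family, had 13014 young and 31692 old reads and let-7d* 42 and 33, a share of 0.322% and 0.104%. miR-16, a regulator of the cell cycle that is made by several hairpins, had 744 and 1723 reads. miR-16-1* had 36 and 27, a share of 4.62% and 1.54%. Both changes were -1.63 on the log2 scale, with counting SEs of 0.34 and 0.37. Of the 7 let-7 stars, let-7d* passed lower by the counted tag, against 6.36% of all strand pairs. let-7i* had 11 and 3 reads beside 54878 and 55508 of let-7i, which did not pass by tag (exact Fisher adjusted P-value 0.257) and passed with all tags of the arm (0.0159). The median change of the 7 let-7 stars, of which let-7a-1* and let-7c-2* share a tag, was -0.75.

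miR-30c-2* and miR-410* completed the pairs with a lower share. miR-30c-2* had 260 young and 160 old reads, and the miR-30c guide had 63 and 81, so that the share was 80.5% and 66.4%. After GC correction the change was -0.78 and the call was lost. The counted guide tag was the 23-nucleotide form, while the most read tag of that arm was 24 nucleotides long. With all tags of the arms, the star share was 48.6% and 40.4%, and the order of the strands turned. miR-410* had 11 and 4 reads beside 353 and 658 of miR-410, a share of 3.02% and 0.604% (exact Fisher adjusted P-value 0.044), and its call was lost after GC correction at -1.94. Among pairs with at least 10 star and 10 guide reads, the 5 largest falls also took in miR-193* with 12 and 3 reads and miR-299* with 9 and 2. Neither passed by tag, and miR-193* passed with all tags of its arm (share 16.3% and 4.55%).

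In 3 pairs the share was higher in the old library, and in each the guide was lower by total reads while the log2 ratio of the star was 0.19 for miR-154*, 0.09 for miR-676* and 0.48 for miR-674*. miR-154* had 37 young and 62 old reads, while miR-154 had 149 and 70. The share was 19.9% (95% interval 14.8 to 26.2) and 47.0% (38.7 to 55.4), a log2 change of 1.83 (counting SE 0.37). miR-676* had 64 and 100 reads, and miR-676 stood at 52.2 and 19.8 RPM, a share of 21.3% and 43.1% (log2 change 1.48, counting SE 0.28). miR-674* had 21 and 43 reads beside 167 and 142 of miR-674, a share of 11.2% and 23.2% (exact Fisher adjusted P-value 0.0275), and its call was lost after GC correction at 1.07. Mir154 lies at chr12:110976643-110976708 in an intron of the lincRNA Mirg, in the imprinted domain of chromosome 12. Mir676 lies at chrX:97576436-97576524 in an intron of Eda.

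miR-34a*, miR-330* and miR-300* were the others of the 5 largest rises by tag among pairs with at least 10 star and 10 guide reads. miR-34a, a known target of p53, had 124 young and 88 old reads and miR-34a* 4 and 9, a share of 3.12% and 9.28% (exact Fisher adjusted P-value 0.463). With all tags of the arms, miR-34a* had 18 and 55 reads beside 273 and 175, a share of 6.19% and 23.9% (log2 change 2.25, counting SE 0.42, exact Fisher adjusted P-value 1.29e-07). Its most read tag was 22 nucleotides long, 1 longer than the counted one. miR-300* had 3 and 9 reads and did not pass in either count.

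In 17 young and 20 old pairs, 16 of them the same, the star tag had more reads than the guide tag. Among the pairs of 50 or more reads, miR-140* stood beside 4 and 5 guide reads, and miR-322* had 250 and 398 reads beside 8 and 10 of miR-322, the mouse counterpart of human miR-424. miR-330* had 382 and 361 reads beside 16 and 5. miR-329* had 96 and 73 beside 3 and 4, miR-193b* 67 and 38 beside 7 and 1, and miR-664* 66 and 40 beside 7 and 2. The star shares of these 6 lay between 90.4% and 99.8%, in both libraries. The star was thus the more read strand of these hairpins in both libraries, and the test of the change passed by tag for none of the 6.

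**Figure D3:**
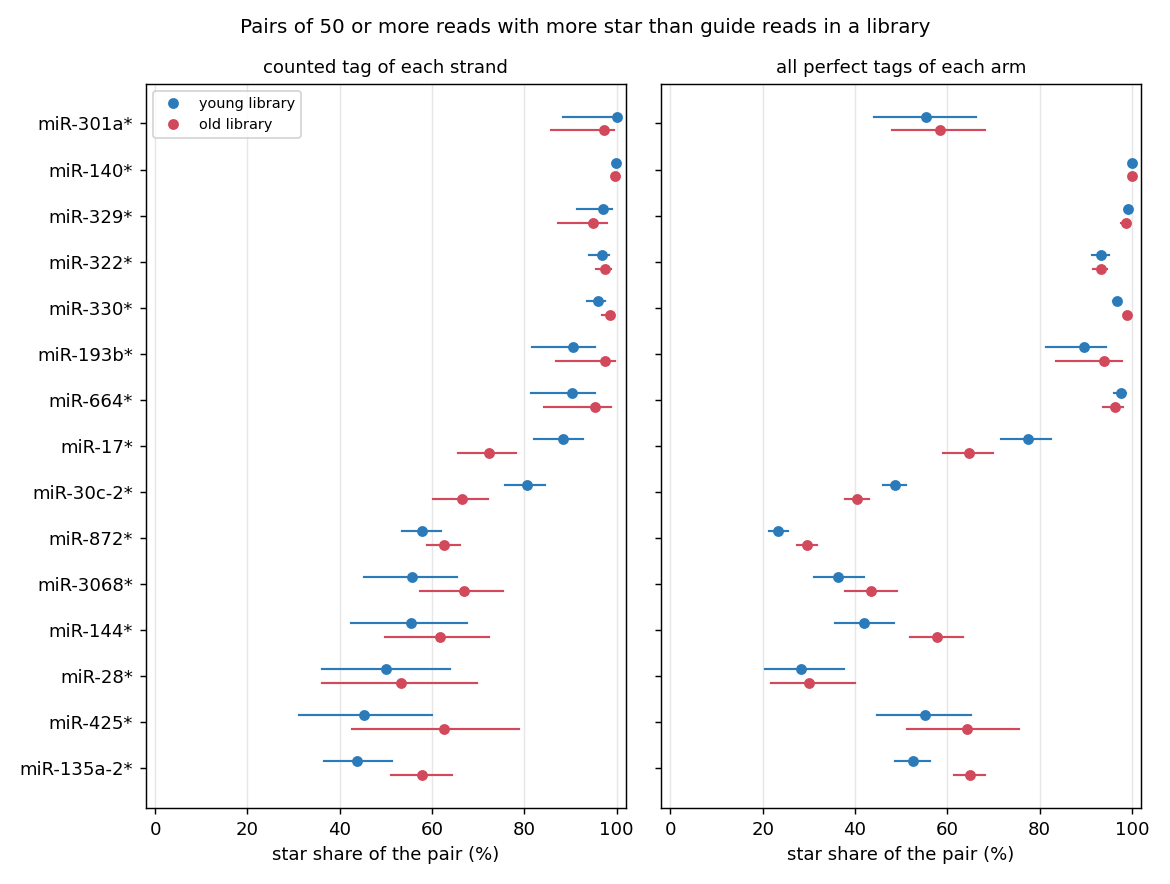
Star share of the pair in percent for 15 pairs of 50 or more reads in which the star had more reads than the guide in at least 1 library, from the counted tags (left) and from all perfect tags of each arm (right). Points are the young (blue) and old (red) library and bars are Wilson 95% intervals of counting. miR-140*, miR-329*, miR-322*, miR-330*, miR-193b* and miR-664* stay near 90% or above in both panels, whereas miR-872*, miR-3068*, miR-30c-2* and miR-28* lie below 50% for both libraries in the right one.

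The order of these strands held with all tags of the arms. miR-140* then had 40344 young and 42498 old reads beside 7 and 16, and miR-330* had 2235 and 2420 beside 77 and 27. The share of miR-330* was 96.7% and 98.9% in that count, a log2 change of 1.63 (counting SE 0.33, exact Fisher adjusted P-value 1.66e-06). The most read tag of the miR-330* arm started 1 base downstream of the counted tag, which shifts the seed. For miR-664*, the ratio was higher in the old library by tag and lower by arm, and neither passed. Mir330 overlaps an annotated exon of Eml2 at chr7:19766814-19766911.

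In other pairs the order of the strands, or the size of the star's lead, depended on which tags of each arm were counted. miR-872* had 316 young and 421 old reads beside 231 and 252 guide reads, a share of 57.8% and 62.6%. The counted guide tag held the minor part of the 1255 and 1199 reads of its arm, and with all tags the share was 23.3% and 29.5% (exact Fisher adjusted P-value 0.000391). miR-3068* had 50 and 67 reads beside 40 and 33, and its share by arm was 36.4% and 43.4%. miR-144*, from the red blood cell hairpin miR-144, had 31 and 42 reads beside 25 and 26. By arm its share was 42.0% and 57.7%, so that the order turned between the libraries (exact Fisher adjusted P-value 0.00294). miR-135a-2* had 74 and 125 reads beside 95 and 91, a share of 43.8% and 57.9% by tag and 52.5% and 64.8% by arm. miR-301a* had 29 and 35 reads beside 0 and 1 of its guide tag, but by arm 41 and 52 beside 33 and 37. miR-28* had 23 and 16 reads beside 23 and 14 of its guide, but by arm 30 and 28 beside 76 and 65, a share of 28.3% and 30.1%. miR-425* had 19 and 15 reads beside 23 and 9, so that the order turned between the libraries by tag, while by arm the star led in both with 48 and 36 beside 39 and 20. Neither passed the test by tag or by arm.

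For miR-221 the counted tag missed most of the star. The study's name miR-221* was held by a tag of 26 nucleotides with 82 young and 62 old reads, a share of 1.56% and 1.71%. The most read tag of that arm had the same 5′ end and was 22 nucleotides long, with 3158 and 5683 reads. Both are shown beside the counted tag of miR-221, a miRNA known to target Kit.
miR-221* counted tag: aCCTGGCAtacaatgtagatttctgt
miR-221* most read tag: aCCTGGCAtacaatgtagattt
miR-221: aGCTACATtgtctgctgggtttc

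By arm, miR-221* had 4406 young and 7734 old reads and miR-221 15037 and 10006. The star share was then 22.7% (95% interval 22.1 to 23.3) and 43.6% (42.9 to 44.3), a log2 change of 1.40 (counting SE 0.03). By counted tag the log2 change was 0.14 (counting SE 0.24, exact Fisher adjusted P-value 0.952). Among reads with the first 18 nucleotides of the star, tags of 22 nucleotides made up 69.9% (young) and 71.2% (old), and those of 26 made up 2.18% and 1.26%. In RPM the star was higher in the old library at each length from 21 to 25, and the guide was lower at each length from 18 to 25. Mir221 lies at chrX:18723420-18723514 on the minus strand, outside annotated genes.

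**Figure D4:**
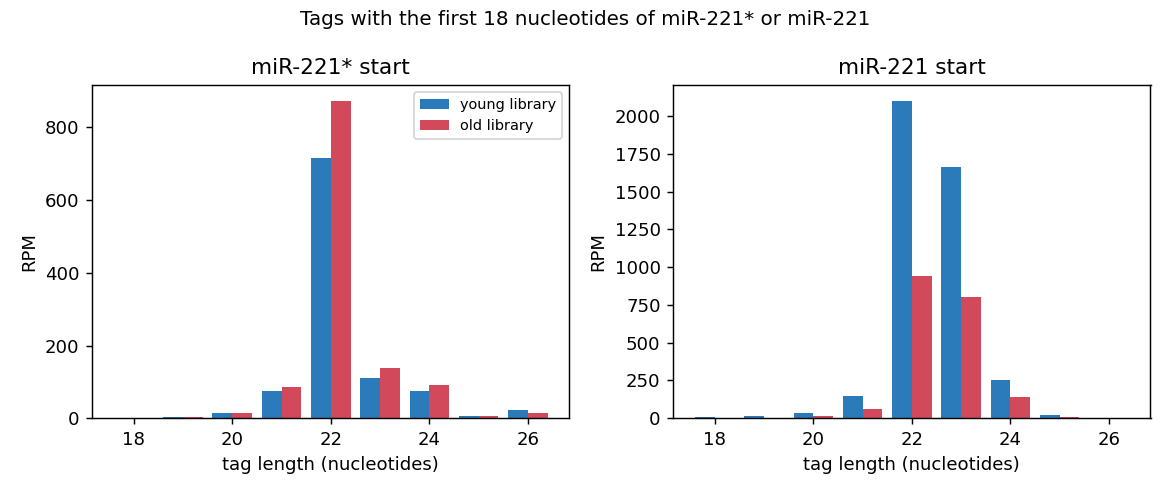
RPM (vertical axis) by tag length in nucleotides (horizontal axis) for tags with the first 18 nucleotides of miR-221* (left) or miR-221 (right). Bars are the young (blue) and old (red) library. The star is higher in the old library at 22 nucleotides and the guide is lower at 22 and 23.

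For other stars the counted tag had a 5′ end that few reads of the arm shared. For miR-132, a miRNA induced by neuronal activity, the counted star tag had 5 young and 4 old reads. The most read tag started 1 base downstream, had 460 and 348 reads and a different seed.
miR-132* counted tag: aACCGTGGctttcgattgttac
miR-132* most read tag: aCCGTGGCtttcgattgttact
miR-132: tAACAGTCtacagccatggtcg

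By arm, miR-132* had 796 young and 524 old reads. The share was 54.1% and 40.7%, so that the star arm had more reads in the young library and fewer in the old one (log2 change -0.78, counting SE 0.11, exact Fisher adjusted P-value 5.88e-11). The most read star tags of miR-136 and miR-370 started upstream of the counted ones, by 1 and 4 bases. By arm the share of miR-136* was 17.6% and 22.2%, and that of miR-370* 39.1% and 58.7%. miR-708* started 1 base downstream in its most read tag, and its share by arm was 45.8% and 32.7%. For miR-127* the most read tag started 2 bases downstream. By tag its share was 3.70% and 3.95%, and by arm 13.5% and 17.5% (exact Fisher adjusted P-value 1.27e-49). Over 96 pairs with enough reads on both arms, the counted tag held a median of 31.8% of the star arm's reads, from 0.682% to 93.8%, and 47.7% of the guide arm's.

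The ratios of the remaining stars of 100 or more reads did not pass the test by tag. miR-30a* had 187 young and 184 old reads, a share of 4.87% and 5.67%, and passed by arm with 4.20% and 4.84% (exact Fisher adjusted P-value 0.0317). miR-30e*, with the same seed, had 108 and 111, a share of 32.9% and 31.4%. The counted miR-30e tag held only 220 and 243 of the 3009 and 3049 reads of the guide arm. The counted miR-30e* tag held 28.3% and 29.4% of the star arm, so that the share by arm was lower in both libraries. miR-124*, the partner of the main neuronal miRNA, had 120 and 73 reads, a share of 6.27% and 7.98% beside a guide tag that also held few of its arm's reads. With all tags of the arms, its share was 0.303% and 0.308% (log2 change 0.02, counting SE 0.11). miR-181a-1* had 125 and 66 reads (2.96% and 2.22%), and miR-181c*, with the same seed, had 88 and 59 (49.2% and 45.4%). The counted miR-181c tag held few of the reads of the guide arm, while the counted miR-181c* tag held most of those of the star arm. The share of miR-181c* by arm was therefore far lower in both libraries, and the near-equal strands hold only for the counted tags. miR-22* had 22.6 and 16.4 RPM and a share of 3.57% and 4.07%. miR-433* had 57 and 52 reads, 0.609% and 0.768%, and passed by arm with 1.59% and 2.31%.

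The lists of related miRNAs held few pairs past the test. The background over all strand pairs was 6.36% lower and 3.47% higher by tag, and 12.8% and 10% by arm, and with lists this small a count of 1 or 2 is given as a description only. In the imprinted domain of chromosome 12, 22 stars are listed, and of 20 pairs 1 passed lower (miR-410*) and 1 higher (miR-154*), with a median change of -0.27. By arm, 2 of its pairs passed lower and 5 higher. Among 21 stars of neuron-related miRNAs 0 passed by tag in either direction, and by arm 2 passed lower (miR-132* and miR-708*) and 3 higher (miR-135a-2*, miR-330* and miR-433*). Of the 10 stars listed as passenger strands that are often read, 2 passed higher (miR-674* and miR-676*) and 0 lower, with a median change of 0.52. In the miR-30 family 1 of 6 passed lower. The 8 stars of the miR-23, miR-27, miR-24, miR-221 and miR-222 hairpins had a median change of -0.54 and 0 passed. By arm, miR-24-2* passed lower with 2.78% and 1.71%, and miR-221* higher. The lists around miR-99, miR-15 and miR-16, and glia each had 1 pair past the test by tag (miR-99b*, miR-16-1* and miR-219-3p*), all lower, and those of miR-29, blood and muscle had 0. miR-29a* by arm had 63 and 46 reads beside 335196 and 432577, and miR-381* 42 and 14 beside 139 and 125, and both passed lower.

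GC content moved with both readouts. Over the 73 stars of 10 or more reads, the Pearson correlation of the log2 ratio with the GC content of the tag was -0.46. The median log2 ratio was -0.26 for 16 stars below 45% GC, -0.80 for 33 from 45 to 55%, and -0.99 for 24 at 55% or above. Over all names of 10 or more reads, the fitted slope was -0.44 per 10 points of GC. The ratio change followed the GC difference between star and guide with a Pearson correlation of -0.40 over the 64 pairs, and its median was 0.27 where the star was lower in GC (20 pairs) and -0.04 where it was higher (40 pairs). After a linear correction for GC, 7 of the 12 pairs past the test still passed. The calls of miR-106b*, miR-219-3p*, miR-30c-2*, miR-410* and miR-674* were lost, with log2 changes of -0.41, -0.18, -0.78, -1.94 and 1.07. miR-185* kept -1.86 and miR-154* 1.24.

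**Figure D5:**
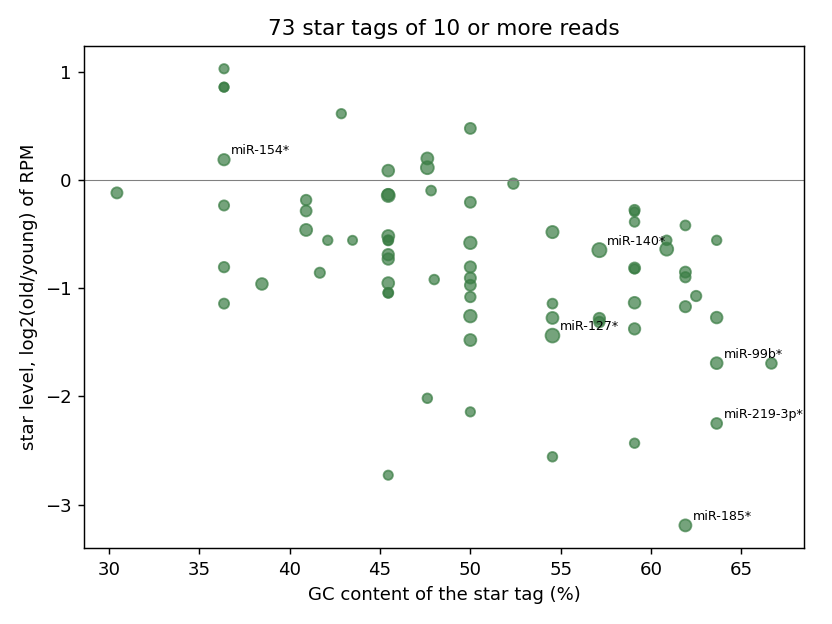
Log2 ratio (old/young) of the RPM (vertical axis) against the GC content of the tag in percent (horizontal axis) for 73 stars of 10 or more reads, with point size growing with the reads. miR-185* at 61.9% GC is the lowest at -3.19, with levels scaled by total reads.

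The sequences of star and guide differed at their 5′ ends. Of the distinct stars with a guide, 12.5% began with T, 35.4% with C and 18.8% with G, while of the distinct guides 53.0% began with T, 12.7% with C and 4.48% with G. In the first 4 bases the guide had more A and T than the star in 77 pairs, the same number in 38 and fewer in 30. Of the 20 stars with more reads than their guide, 20% began with T, and of their guides 45%. The stars came from the 3p arm in 80 hairpins and from the 5p arm in 71. Of the 151 stars, 34 shared a seed with another star, such as miR-30a* and miR-30e*. Only 7 shared 1 with a name that is not a star, such as miR-34c* (1 young and 0 old reads) with miR-34b-3p. These seeds and first bases are those of the counted tags, including the 38 stars of at most 17 reads whose sequence is not certain. For some stars, such as miR-132* and miR-330*, the most read tag of the arm has another start and another seed.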

How the data were processed

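The members and lists were chosen with earlier results of these data known. Small RNAs were counted in 1 library of young and 1 library of old mouse brains. Per the labels and the methods, the authors removed adapters, aligned reads to mm9 with SOAP and deposited raw read counts per distinct tag, without normalization. No column of another sample was used (0).

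Star and guide names came from the known-miRNA table of the study. Its counts served only to find, on the named hairpin (RefSeq or GENCODE), the tag that holds them, and 113 of 151 star names had a single candidate tag. All values are deposited counts of those tags. The other 38, of at most 17 reads each, had several tags with these counts. There the tag opposite the partner strand and nearest to the RefSeq mature ends was taken, so that their counts are certain and their sequences are not. Where a name has another 3′ end on the same arm, tags were also summed over the first 18 nucleotides, over all perfect tags of the arm (18 to 26 nucleotides), or replaced by the RefSeq mature sequence. Perfect tags of an arm include tags shared with other hairpins.

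The star share is star reads over star plus guide reads, with Wilson 95% intervals. Ratios were tested with Fisher's exact test, two-sided, with Benjamini-Hochberg adjustment over all 173 strand pairs of 10 or more reads. Levels were scaled by total reads and tested with the random sampling formula of DEGseq, adjusted over 540 names, with an exact binomial test as the alternative. A 0 was set to 0.5. Normal P-values from the counting SE replaced Fisher's test under the GC correction. Intervals and P-values cover counting error only, since PCR reads are not independent molecules. Both statistics were run on simulated Poisson counts without variation between mice or libraries, which cannot show how they behave under such variation. Hairpins were placed on NCBIM37 (mm9) by perfect match. Python 3.11.15, numpy 2.4.6, scipy 1.17.1, pandas 2.3.3, R 4.3.3, edgeR 4.0.16 and DESeq2 1.42.0 (factors only) were used.

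The pairs described in full are stars of 100 or more reads, pairs of 50 or more reads led by the star in a library, the 5 largest rises and 5 largest falls of the ratio among pairs with at least 10 star and 10 guide reads, and pairs of 100 or more reads whose order turns when all 3′ ends are counted. let-7d*, miR-16-1*, miR-219-3p*, miR-674*, miR-132*, miR-136*, miR-370*, miR-24-2*, miR-29a*, miR-381* and miR-99a* were chosen after their values were seen, and the alternative of 10 star and 10 guide reads and the pairing of miR-219-3p* with miR-219-3p were added after seeing the data.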

Additional observations from a re-analysis of the deposited data

How the results depend on the processing

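Leaving out a replicate was not run, since each age has 1 library. No paired analysis was possible because the replicate number of each group was given in accession order and each age has 1 library. Of 337 recomputed ratio changes of 39 named pairs, 293 kept their direction and side of the threshold, 5 lost a call, 26 gained one and 13 turned. Of 212 recomputed star levels, 167 were kept, 34 lost the call and 11 turned. The causes were not tested, except that fewer pairs enter under stricter minimums.

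Pairs past the adjusted test were 17 lower and 13 higher with all tags of the same first 18 nucleotides, 17 lower and 14 higher by arm, and 6 lower and 7 higher after GC correction, against 9 lower and 3 higher by the counted tags. With at least 10 star and 10 guide reads, chosen after seeing the data, the median ratio change was 0.10, with 12 pairs at least 2-fold lower and 7 higher. The median star level was -1.02 by reads on counted miRNAs, -0.14 by TMM and -0.17 by DESeq2 factors. Stars at least 2-fold lower were 9 by TMM, 9 by DESeq2 and 12 at a minimum of 50 reads. Stars at least 2-fold higher were 0 by reads on counted miRNAs, 5 by TMM, 5 by DESeq2, 3 without let-7, 0 at 50 reads, 0 after GC correction and 0 with 1 read added.

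Ratio changes that turned, none of them past the test, were miR-127* at -0.018, miR-22* at -0.026, miR-28* at -0.34 and miR-664* at -0.19 by the first 18 nucleotides, miR-322* at -0.012 and miR-664* at -0.66 by arm, and, after GC correction, miR-127* at -0.10, miR-140* at 0.10, miR-181c* at 0.37, miR-22* at -0.0017, miR-221* at -0.27, miR-30e* at 0.094 and miR-433* at -0.059. Star levels that turned were, by TMM and DESeq2 factors, miR-17* at 0.18 and 0.16, miR-22* at 0.20 and 0.18, miR-30a* at 0.079 and 0.057, and miR-30e* at 0.14 and 0.12, by TMM alone miR-140* at 0.012 and miR-330* at 0.021, and by the first 18 nucleotides miR-221* at 0.26. At this depth 78 of 151 stars had fewer than 10 reads by counted tag.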
